A study of Mus musculus with 35 samples.

Results

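The cytosolic heat shock genes described here are Hspa1a, Hspa1b, Hspa8, Hspa4l, Hsph1, Hspb1, Hsp90aa1, Dnajb1, Dnaja1 and Bag3. They were taken as every probe set that the array platform's annotation gives to 1 of these symbols, which is 28 of 45101 probe sets on the array. The study measured liver RNA of BALB/c mice 6 h after an intravenous injection, with 1 array per mouse and 5 mice in each of 7 groups to which they had been randomly assigned. Control mice received deionized water. The other groups received silica particles of different sizes. SP70 was given at 10, 20 or 40 mg/kg and SP300 at 10 or 200 mg/kg, whereas SP30 was given at 10 mg/kg. One experiment compared the doses of SP70, and the other compared particle sizes at 10 mg/kg and at the toxic doses, as judged from liver histology and serum values, which were 40 mg/kg of SP70, 200 mg/kg of SP300 and the only dose of SP30. The sample was a piece of the left lateral lobe, so it holds every cell type of that lobe. The labels give neither age nor sex of the mice.

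Heat shock proteins are chaperones that keep other proteins folded or help them refold. HSP70 proteins (Hspa1a, Hspa1b, Hspa8) bind exposed stretches of unfolded protein in a cycle driven by ATP. J-domain proteins (Dnaja1, Dnajb1) bring them their clients, and exchange factors (Hsph1, Hspa4l, Bag3) let the clients go, Bag3 also steering them to autophagy. Hsp90aa1 encodes the inducible cytosolic HSP90, which matures receptors and kinases, and Hspb1 a small heat shock protein that holds unfolded proteins without ATP. Hspa8 is the constitutive HSP70 of most cells, whereas Hspa1a and Hspa1b are strongly induced by heat and other protein damage through heat shock factors, which bind repeats of the letters GAA and TTC.

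The bases before the start site are shown for 5 of the genes, because the genes that rose differ in whether they carry such a repeat there, and because Hspa1a and Hspa1b are so alike that their signals are hard to separate. They are the 250 bases before the first start site in RefSeq's GRCm38.p6 table, 5′ to 3′ on the strand of the gene, with capitals for a match to GAANNTTC or TTCNNGAA.
Hspa1a, chr17:34972157-34972406, minus strand: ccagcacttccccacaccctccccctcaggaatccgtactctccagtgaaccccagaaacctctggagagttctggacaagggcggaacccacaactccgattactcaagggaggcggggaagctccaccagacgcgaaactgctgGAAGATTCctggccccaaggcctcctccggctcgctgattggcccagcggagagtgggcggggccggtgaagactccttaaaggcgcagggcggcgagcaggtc
Hspa1b, chr17:34959239-34959488, minus strand: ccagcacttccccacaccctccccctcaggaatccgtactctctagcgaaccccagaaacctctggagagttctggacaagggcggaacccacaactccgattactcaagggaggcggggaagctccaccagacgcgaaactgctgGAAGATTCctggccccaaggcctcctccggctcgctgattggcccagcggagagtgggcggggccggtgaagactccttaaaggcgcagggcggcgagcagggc
Hsph1, chr5:149636337-149636586, minus strand: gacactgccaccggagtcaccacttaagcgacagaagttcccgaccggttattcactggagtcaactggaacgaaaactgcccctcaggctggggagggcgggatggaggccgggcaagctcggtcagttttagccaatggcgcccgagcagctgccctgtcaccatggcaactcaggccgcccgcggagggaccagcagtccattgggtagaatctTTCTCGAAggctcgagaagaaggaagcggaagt
Hspb1, chr5:135887669-135887918, plus strand: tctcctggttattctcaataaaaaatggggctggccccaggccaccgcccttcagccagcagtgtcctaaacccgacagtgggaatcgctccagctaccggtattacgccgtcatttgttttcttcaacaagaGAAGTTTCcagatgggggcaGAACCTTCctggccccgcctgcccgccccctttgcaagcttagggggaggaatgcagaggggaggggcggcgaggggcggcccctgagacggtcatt
Bag3, chr7:128523333-128523582, plus strand: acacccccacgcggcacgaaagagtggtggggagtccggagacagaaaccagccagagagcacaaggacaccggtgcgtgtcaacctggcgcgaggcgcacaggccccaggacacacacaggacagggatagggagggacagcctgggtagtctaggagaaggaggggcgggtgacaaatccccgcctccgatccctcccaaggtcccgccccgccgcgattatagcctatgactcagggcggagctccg
The windows of Hspa1a and Hspa1b differ at 3 of 250 bases and are 98.8% identical. Each holds GAAGATTC at position -104 from the start site. Hspb1 holds a match at -117 and one at -97, and Hsph1 one at -33. Neither Hspb1 nor Hsph1 was called in any comparison with control. Dnaja1, which is not shown and did not rise either, holds a match at -124 in the first of its windows. Bag3 has no match in this window, and neither have Dnajb1 and Hspa4l, which are not shown. The table has windows for 8 of the 10 genes, and Hspa8 and Hsp90aa1 are named only. Either motif, each of which reads the same on both strands, was found for 5 of those 8 genes. Counted by window, since a gene can have several start sites, it was in 6 of their 12 windows and in 12.8% of all 32851 windows in the table. The longer form with 3 alternating units in a row was in none of the windows of these genes and in 0.466% of all windows. A match is a string of letters and shows no binding.

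Signals are the deposited intensities on a linear scale. Tests used the 26864 probe sets with a signal above 165 (the overall median) on 5 or more arrays, among them 27 of the 28 heat shock probe sets. The Hsp90aa1 probe set 1441827_x_at never exceeded it, and a second one, 1433251_at, passed through only 5 arrays. Differences are on the scale of log2(signal + 12.5), with the standard error (SE) of limma's fit over all 35 arrays, and a call is an adjusted p under 0.05 (Benjamini-Hochberg over the 26864 probe sets). Array medians ran from 149 to 180, and arrays of a group correlated at 0.952 to 0.971 across probe sets. The 10 hepatocyte markers had summed signals of 649876 to 689129 in control mice and of 545680 to 788011 in the treated groups. After 200 mg/kg of SP300 the sums were 560399 to 667221. There 4 of the 10 were called lower and 0 higher, beside 14.4% and 9.84% of all probe sets. The 6 comparisons with control share the 5 control mice.

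Bag3 rose after every particle and dose except SP300 at 10 mg/kg, and Dnaja1 fell after SP30 and after the higher doses of SP70 and SP300. Hspa1a and Hspa1b were called higher after SP30 and after 40 mg/kg of SP70. Hspa4l was called higher by some of its probe sets after SP30 and lower by none there. Its probe sets gave opposite calls after 20 and 40 mg/kg of SP70. The remaining heat shock genes rose in no comparison with control: their probe sets fell or were not called. After 10 mg/kg of SP70, 1 of 27 probe sets was higher and 1 lower, where 10.8% of all probe sets were higher and 4.08% lower. After 20 mg/kg, 2 were higher and 6 lower, beside 19.4% and 15.5%, and after 40 mg/kg 7 were higher and 5 lower, beside 13.6% and 22.1%. After SP30, 8 were higher and 3 lower, beside 16% and 24.3%. After SP300, 0 were higher and 2 lower at 10 mg/kg, beside 0.834% and 0.29%, and 1 was higher and 7 lower at 200 mg/kg, beside 9.84% and 14.4%. The median over the 27 probe sets was -0.18 after 40 mg/kg of SP70, 0.02 after SP30 and -0.39 after 10 mg/kg of SP300, and that over all probe sets was -0.06, -0.08 and 0.05. The called share of the 27 probe sets was 7.41% after 10 mg/kg of SP70 and of SP300, 29.6% after 20 mg/kg of SP70 and 200 mg/kg of SP300, 44.4% after 40 mg/kg of SP70 and 40.7% after SP30.

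**Figure D1:**
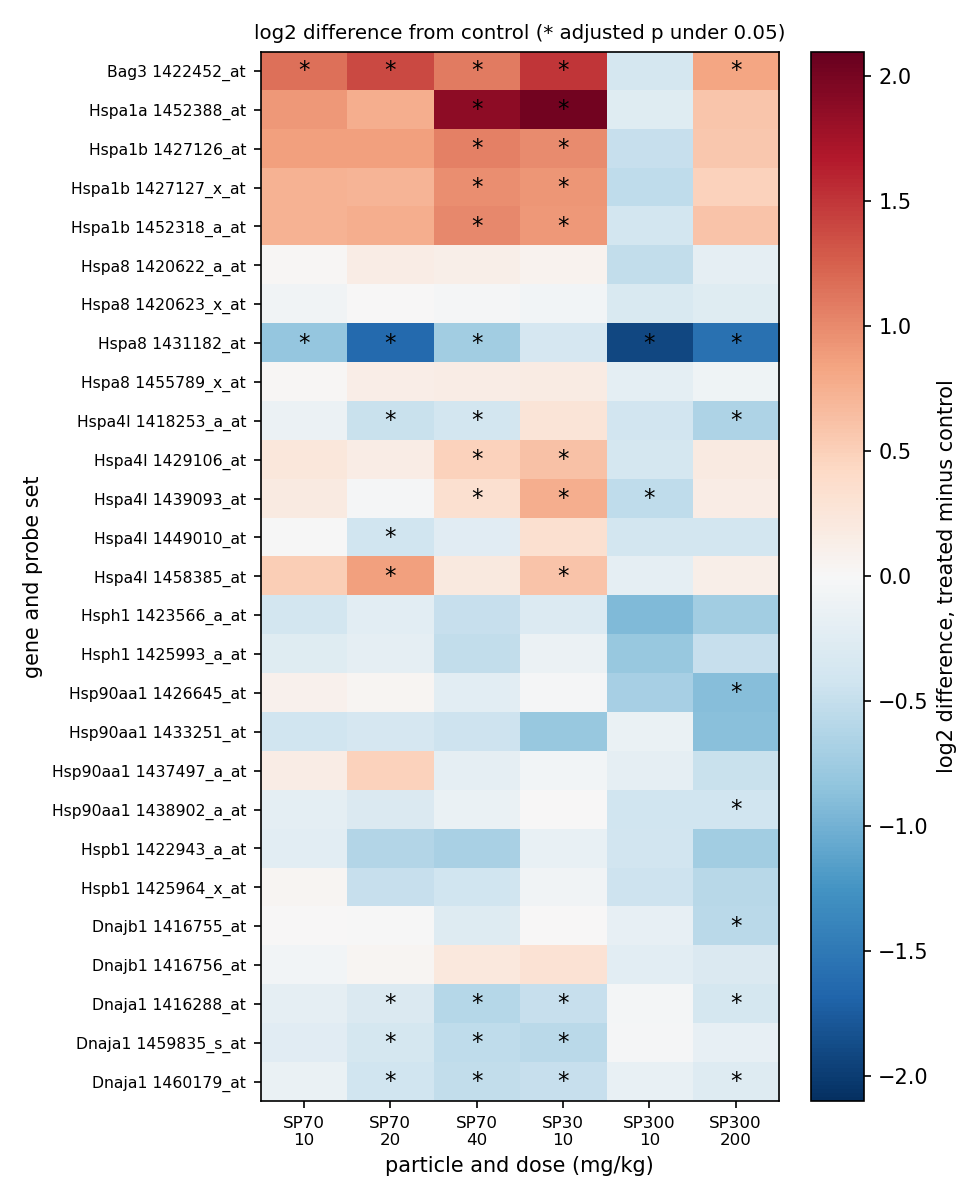
Log2 differences from control for the 27 tested heat shock probe sets (rows) after each particle and dose in mg/kg (columns), red where the treated mice were higher and blue where they were lower, with a star for an adjusted p under 0.05. The row of Bag3 is red and starred in 5 of 6 columns, and the rows of Hspa4l and Hspa8 show probe sets of 1 gene that differ in sign.

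Hspa1a and Hspa1b, the inducible HSP70 genes, had the widest spread among control mice. The Hspa1b probe set 1452318_a_at gave signals of 3708, 2104, 4026, 8788 and 19312 in control mice 1 to 5. It gave 11067, 9755, 17612, 11622 and 7801 after 40 mg/kg of SP70, and 15497, 9100, 15573, 6164 and 9537 after SP30. The ranges of the groups overlap: control mouse 5 lies above every treated mouse in both groups, while control mice 1 to 3 lie below all of them. The rise was 1.00 ± 0.36 (SE, n = 5 per group; adjusted p = 0.0282) after 40 mg/kg of SP70 and 0.92 ± 0.36 (adjusted p = 0.0408) after SP30, which are folds of 2.00 and 1.89. The other Hspa1b probe sets, 1427126_at and 1427127_x_at, rose by 1.07 and 0.98 after 40 mg/kg of SP70 and by 0.99 and 0.92 after SP30. At the lower doses of SP70 the 3 probe sets gave 0.71 to 0.86 and none was called, and after 200 mg/kg of SP300 they gave 0.49 to 0.59, again with none called.

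The Hspa1a probe set 1452388_at was dim in control mice, at 97.3, 158, 70.4, 308 and 656. It reached 666, 702, 1539, 848 and 340 after 40 mg/kg of SP70, and 1132, 1092, 1489, 461 and 390 after SP30. Only control mouse 5 reached into these ranges. With signals below 165 raised to that level, Hspa1a was at least 2.96-fold higher after 40 mg/kg of SP70 and at least 3.25-fold higher after SP30. On the log2 scale these were 1.89 ± 0.41 (adjusted p = 0.00038) and 2.02 ± 0.41 (adjusted p = 0.000141), and they depend on the pseudocount since 3 of the control signals lay below 165. After SP300 at 10 mg/kg the signals were 107, 136, 124, 244 and 204, within the range of control mice. The genes encode nearly the same protein, and a probe set of 1 can take up RNA of the other, so the signals of Hspa1a and Hspa1b cannot be told apart with certainty.

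Control mouse 5 decided how many groups were called for these genes. Without it, the rise of Hspa1a was 1.35 (adjusted p = 0.0137) after 10 mg/kg of SP70, 1.19 (adjusted p = 0.0147) after 20 mg/kg, 2.32 after 40 mg/kg and 2.45 after SP30. The 3 Hspa1b probe sets were then called in 5 of the 6 groups: 1452318_a_at rose by 1.18 after 10 mg/kg of SP70 (adjusted p = 0.00784), 1.21 after 20 mg/kg (adjusted p = 0.00258), 1.45 after 40 mg/kg, 1.37 after SP30 and 1.04 after 200 mg/kg of SP300 (adjusted p = 0.0138). After 10 mg/kg of SP300 it gave 0.06 and was not called. All 3 Hspa1b probe sets lost their calls at 40 mg/kg of SP70 without control mouse 1 or 2 or mouse 3 of that group, and 2 of the 3 also without control mouse 3. They lost those for SP30 without control mouse 1, 2 or 3 or mouse 1 or 3 of the SP30 group. Both sets of calls were also lost with only the compared groups in the fit. The lowest value of 1452318_a_at over all alternatives was 0.65 (adjusted p = 0.15) for 40 mg/kg of SP70 and 0.57 (adjusted p = 0.21) for SP30. Hspa1a kept its calls at 40 mg/kg of SP70 and for SP30 under all 21 alternatives, with adjusted p up to 0.0098.

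Hspa8, the constitutive HSP70, was called lower by 1 of its 4 probe sets and not called by the others. The probe sets 1455789_x_at, 1420622_a_at and 1420623_x_at were bright, with control signals from 14349 to 41181, and differed from control by -0.51 to 0.18 over the 6 treated groups with no call. The fourth, 1431182_at, was dim, with 1032, 1026, 903, 1882 and 1806 in control mice. It gave 698, 774, 902, 670 and 565 after 10 mg/kg of SP70, 457, 318, 279, 533 and 473 after 20 mg/kg, and 770, 592, 819, 863 and 790 after 40 mg/kg. No mouse of those 3 groups reached the lowest control mouse, which held for 2.61%, 11.7% and 15.8% of all probe sets in the same groups. After SP300 it gave 196, 290, 383, 445 and 397 at 10 mg/kg and 506, 304, 337, 436 and 554 at 200 mg/kg, and after SP30 it gave 876, 1411, 1144, 928 and 716.

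This dim probe set fell by 1.90 ± 0.22 on the log2 scale after 10 mg/kg of SP300 (3.74-fold, adjusted p = 5.65e-06), a group in which 0.29% of all probe sets were called lower. It fell by 1.58 ± 0.22 after 200 mg/kg of SP300 and by 1.63 ± 0.22 after 20 mg/kg of SP70, but by only 0.82 ± 0.22 after 10 mg/kg and 0.73 ± 0.22 after 40 mg/kg. After SP30 it was at -0.36 ± 0.22 (adjusted p = 0.214). The dose order was therefore not monotone: 20 mg/kg of SP70 lay below 10 mg/kg by 0.82 (adjusted p = 0.013), and 40 mg/kg lay above 20 mg/kg by 0.91 (adjusted p = 0.00609). The calls against control held under all 21 alternatives. The sequence that 1431182_at detects was not checked here, and its pattern is not shared by the bright probe sets of the gene.

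**Figure D2:**
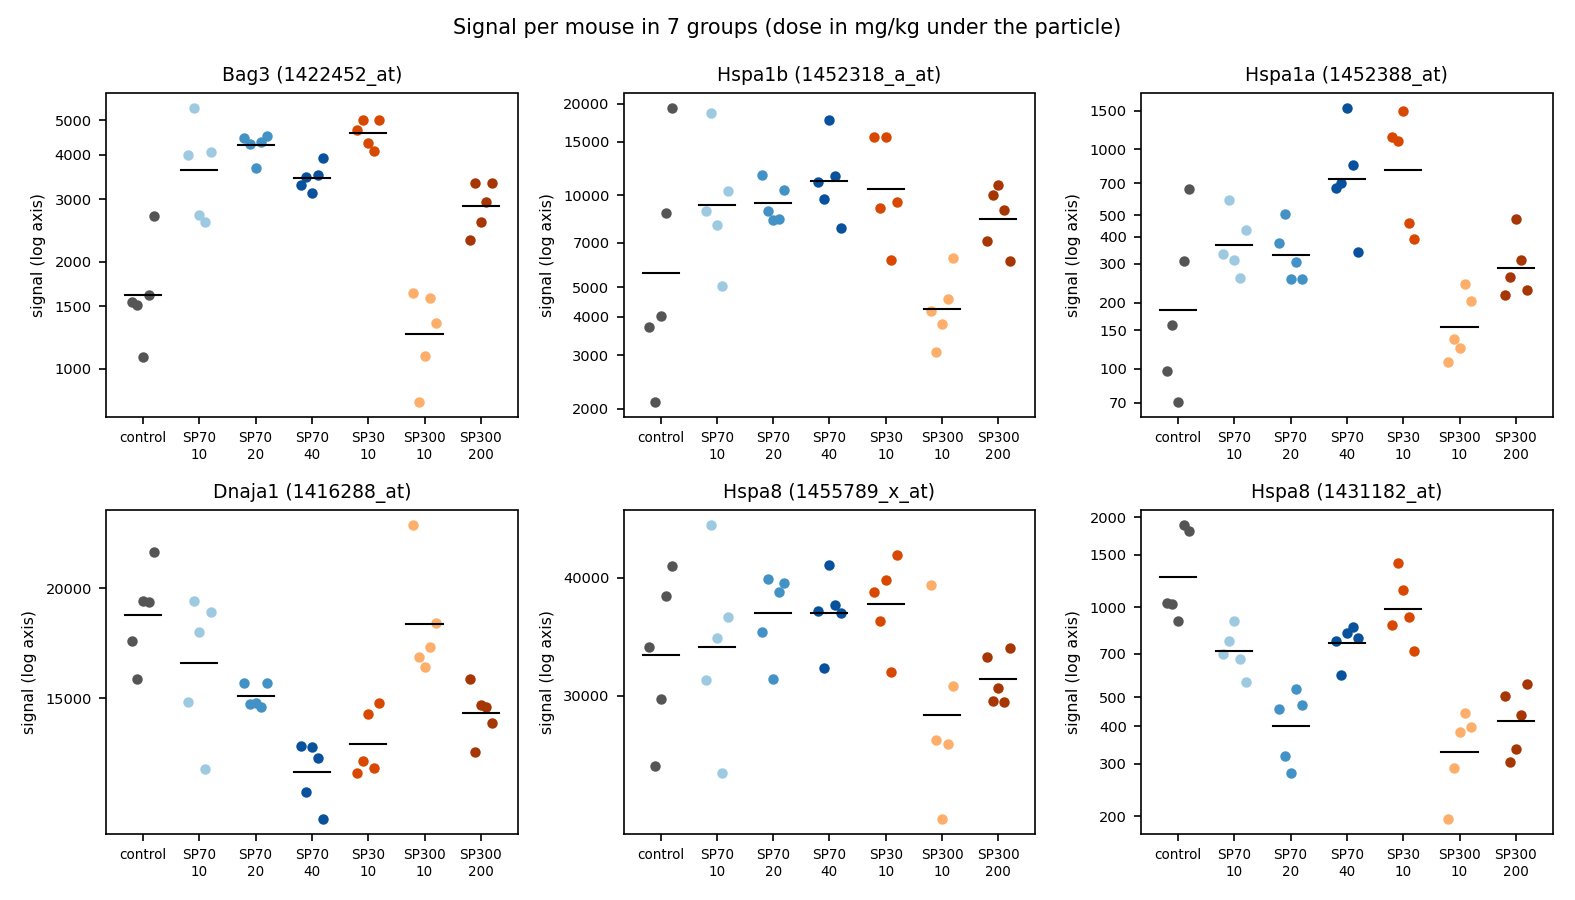
Signal of each mouse (points, log axis) for 6 probe sets in the 7 groups, with a line at the geometric mean of 5 mice; the number under a particle is the dose in mg/kg. For Bag3, 1 control mouse at 2693 stands above the other control mice, for Hspa1b control mouse 5 is at 19312, and for Hspa8 the bright probe set 1455789_x_at stays level where 1431182_at falls.

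Bag3, an exchange factor of HSP70 that steers damaged proteins to autophagy, has 1 probe set, 1422452_at, and gave the most regular rise of these genes. Control mice had 1546, 1515, 1080, 1618 and 2693. The signals were 3999, 5407, 2702, 2584 and 4078 after 10 mg/kg of SP70, 4456, 4301, 3677, 4351 and 4526 after 20 mg/kg, and 3292, 3455, 3116, 3508 and 3916 after 40 mg/kg. SP30 gave 4699, 5009, 4320, 4104 and 4994. All mice of the groups given SP30 and 20 or 40 mg/kg of SP70 lay above all control mice, whereas 1 mouse of the 10 mg/kg group, at 2584, lay below control mouse 5. Such full separation upward was common, at 10.7% of all probe sets after SP30 and 14.9% and 8.23% after 20 and 40 mg/kg of SP70. SP300 gave 1634, 806, 1086, 1585 and 1346 at 10 mg/kg and 2307, 3324, 2582, 2939 and 3321 at 200 mg/kg.

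Bag3 rose by 1.15 ± 0.19 (2.23-fold) after 10 mg/kg of SP70, by 1.39 ± 0.19 (2.62-fold) after 20 mg/kg and by 1.09 ± 0.19 (2.12-fold) after 40 mg/kg, with adjusted p of 1.57e-05, 2.55e-07 and 1.24e-05. It rose by 1.51 ± 0.19 (2.84-fold, adjusted p = 2.94e-08) after SP30 and by 0.82 ± 0.19 (1.77-fold, adjusted p = 0.000968) after 200 mg/kg of SP300. At 10 mg/kg of SP300 it was at -0.37 ± 0.19 (adjusted p = 0.392). All 5 calls held under all 22 alternatives. In order of level, SP30 came first, then SP70 at 20, 10 and 40 mg/kg, SP300 at 200 mg/kg, control and SP300 at 10 mg/kg. Neighbours among the SP70 doses did not pass the test: 20 against 10 mg/kg gave 0.23 (95% interval -0.14 to 0.61), and 40 against 10 mg/kg gave -0.07 (-0.44 to 0.31). SP70 at 40 mg/kg against SP300 at 200 mg/kg gave 0.27 (-0.11 to 0.64), also not called. SP30 and SP70 at 20 mg/kg were not compared by a test.

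Several cell types changed in the same livers, and these are bulk samples, in which fewer cells of a type and less RNA per cell cannot be told apart. The 11 Kupffer cell and macrophage markers had summed signals of 26993 to 39043 in control mice. They summed to 10425 to 17650, 2830 to 5175 and 1866 to 3057 after 10, 20 and 40 mg/kg of SP70, to 8252 to 18607 after SP30, and to 1928 to 2347 after 200 mg/kg of SP300. After 10 mg/kg of SP300 the sums were 29695 to 42782, and 0 of the 11 were called, against 8, 10, 10, 9 and 10 called lower in the other groups in the order above. After 40 mg/kg of SP70, Clec4f fell by 6.03 on the log2 scale and Vsig4 fell by 5.98, both genes that define Kupffer cells. The sums of 8 neutrophil markers were 1141 to 3212 in control mice, 18666 to 26424 after 10 mg/kg of SP70, 48447 to 66007 after SP30 and 1363 to 2179 after 10 mg/kg of SP300. All 6 tested monocyte markers rose after SP70 and SP30, and 5 rose after 200 mg/kg of SP300. After 10 and 20 mg/kg of SP70, 10.8% and 19.4% of all probe sets were higher and 4.08% and 15.5% lower. The 10 endothelial markers split: 6 fell after each of 40 mg/kg of SP70, SP30 and 200 mg/kg of SP300, while 1, 1 and 2 rose. In these comparisons 22.1%, 24.3% and 14.4% of all probe sets were lower and 13.6%, 16% and 9.84% higher. Bag3 and these markers moved in the same groups, and their part in its rise was not tested.

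Hspa4l, an HSP110-type exchange factor, gave opposite calls from its 5 probe sets. The probe set 1439093_at had 592, 627, 653, 539 and 654 in control mice and 790, 1082, 1098, 1369 and 965 after SP30. All treated mice thus lay above all control mice, as they did for 10.7% of all probe sets. It rose by 0.76 ± 0.13 (1.69-fold, adjusted p = 1.03e-05) after SP30 and by 0.33 ± 0.13 (adjusted p = 0.0411) after 40 mg/kg of SP70, and it fell by 0.53 ± 0.13 (adjusted p = 0.0316) after 10 mg/kg of SP300. The probe set 1429106_at also rose after SP30, by 0.62 ± 0.14, and after 40 mg/kg of SP70, by 0.48 ± 0.14. The probe set 1458385_at rose after 20 mg/kg of SP70, by 0.86 ± 0.21, and after SP30, by 0.60 ± 0.21. The rises of 1439093_at and 1429106_at after SP30 held under all alternatives, whereas the call of 1439093_at after 10 mg/kg of SP300 was lost under 8 of 21.

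The brightest Hspa4l probe set, 1418253_a_at, had 1187, 1369, 1583, 1162 and 1598 in control mice. After 200 mg/kg of SP300 it had 869, 746, 981, 885 and 877, all below the lowest control mouse, as for 10.2% of all probe sets. It fell there by 0.65 ± 0.15 (adjusted p = 0.00159) and after 20 mg/kg of SP70 by 0.46 ± 0.15 (adjusted p = 0.0174). After 40 mg/kg of SP70 it fell by 0.39 ± 0.15 (adjusted p = 0.0464), a call that was lost under 14 of 22 alternatives, including 3 other scalings. After SP30 it was at 0.27 ± 0.15 and not called. The probe set 1449010_at fell after 20 mg/kg of SP70, by 0.42 ± 0.15, and was called in no other group. At 40 mg/kg of SP70, 1 probe set of Hspa4l was thus called lower and 2 higher, so no direction is given for the gene. In the pair of toxic doses, SP30 gave higher signals than 40 mg/kg of SP70 for 1418253_a_at, by 0.66 ± 0.15, and 1449010_at, by 0.57 ± 0.15. For both, all 5 mice lay above all 5, as for 2.5% of all probe sets.

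**Figure D3:**
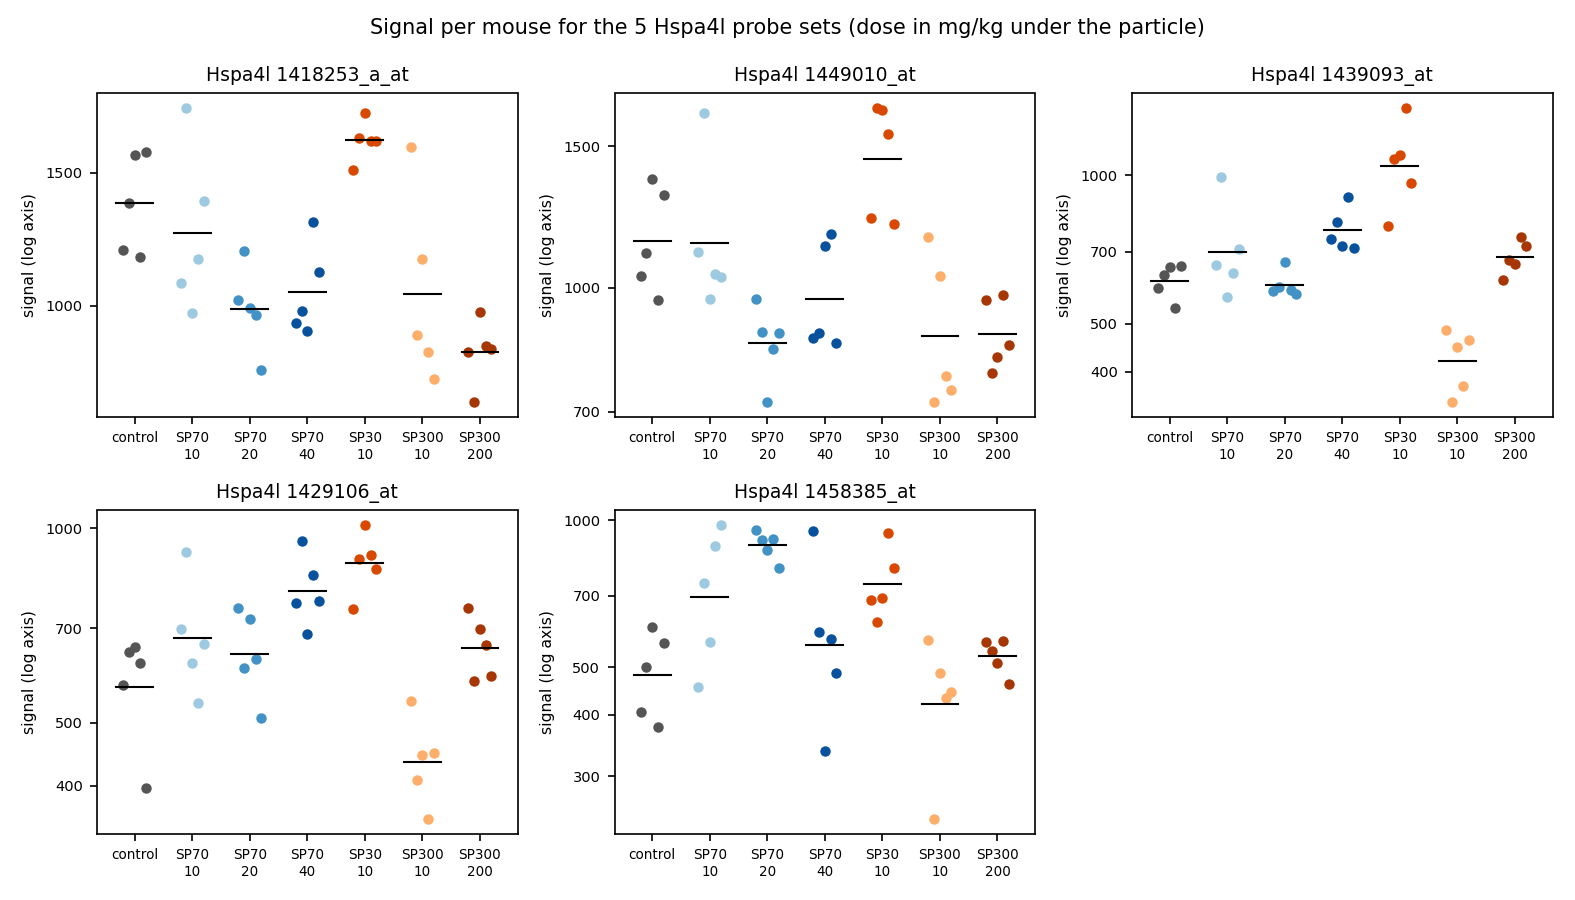
Signal of each mouse (points, log axis) for the 5 Hspa4l probe sets in the 7 groups, with a line at the geometric mean of 5 mice and the dose in mg/kg under the particle. SP30 is the highest group for 4 of the 5 probe sets, while 1418253_a_at and 1449010_at lie lower after SP70 at 20 mg/kg than in control mice and 1458385_at lies higher.

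Hsph1, the HSP110 that works with Hspa8, was called in none of the 6 groups against control. Its probe set 1425993_a_at had 2317, 2736, 3660, 3300 and 7115 in control mice and 6296, 1346, 1418, 1802 and 1553 after 10 mg/kg of SP300. In that group 4 of 5 mice lay below all control mice and mouse 1 lay above 4 of them. The difference was -0.80 ± 0.31 (adjusted p = 0.241), and without mouse 1 it was -1.21 (adjusted p = 0.0137). The other probe set, 1423566_a_at, went from -0.94 (adjusted p = 0.134) to -1.29 (adjusted p = 0.0104). In the remaining groups the 2 probe sets gave -0.72 to -0.12.

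Dnaja1, the J-domain partner of Hspa8, fell with all 3 probe sets after 20 and 40 mg/kg of SP70 and after SP30. The probe set 1416288_at had 17400, 15754, 19337, 19282 and 21981 in control mice, 13225, 11727, 13211, 12836 and 10932 after 40 mg/kg of SP70 and 12322, 12715, 14403, 12499 and 14806 after SP30. All treated mice of both groups lay below all control mice, as they did for 15.8% and 16.7% of all probe sets. It fell by 0.59 ± 0.10 (1.51-fold, adjusted p = 1.37e-05) after 40 mg/kg and by 0.49 ± 0.10 (adjusted p = 0.000189) after SP30, and 1459835_s_at and 1460179_at fell by 0.54 and 0.52 after 40 mg/kg and by 0.56 and 0.49 after SP30. These 6 calls held under all alternatives, scalings included. After 20 mg/kg of SP70 the falls were 0.31, 0.38 and 0.42, and the calls of 1416288_at and 1459835_s_at were lost without control mouse 5. That of 1459835_s_at was lost under 5 of 21 alternatives, each of them with 1 mouse left out. After 200 mg/kg of SP300, 1416288_at fell by 0.37 ± 0.10 and 1460179_at by 0.28 ± 0.10, the latter lost under 12 of 21 alternatives. At 10 mg/kg of SP70 and of SP300 the 3 probe sets gave -0.23 to -0.02 with no call.

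Dnajb1, the inducible J-domain protein, rose in no comparison with control. Its probe set 1416755_at had 1782, 1751, 1529, 2125 and 3703 in control mice and 1483, 1353, 1252, 1136 and 1853 after 200 mg/kg of SP300, where it fell by 0.56 ± 0.21 (adjusted p = 0.0426). The ranges overlap, and without control mouse 5 the difference was -0.35 (adjusted p = 0.203). The probe set 1416756_at was called in none of the 6 groups. After SP30, mouse 1 had the highest signals of its group in both probe sets, 3887 and 3707.

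Hsp90aa1, the inducible HSP90, fell after 200 mg/kg of SP300 and was called in no other comparison with control. The probe set 1426645_at had 5897, 8448, 10993, 8982 and 15262 in control mice and 3131, 4895, 6315, 5812 and 6004 there, so that only the lowest control mouse reached into the range. It fell by 0.89 ± 0.23 (1.86-fold, adjusted p = 0.00324) under every alternative, by 0.72 to 1.06. The brighter 1438902_a_at fell by 0.43 ± 0.15 (adjusted p = 0.0334), a call lost under 10 of 22 alternatives, and 1437497_a_at gave -0.48 ± 0.23 (adjusted p = 0.132). The dim 1433251_at, with signals of 20.4 to 207 over all mice, gave -0.88 ± 0.45 there (adjusted p = 0.163) and -0.80 to -0.14 in the other groups, with no call. After 10 mg/kg of SP300, 1426645_at was at -0.70 ± 0.23 (adjusted p = 0.135), and without mouse 1 of that group at -0.89 (adjusted p = 0.0399).

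Hspb1, the small heat shock protein, varied more between mice of a group than between groups. Its probe set 1422943_a_at had 1299, 1300, 1907, 1679 and 4856 in control mice and 1172, 4958, 992, 2019 and 1036 after 10 mg/kg of SP70. Over the 6 groups its differences from control ran from -0.73 to -0.16 and those of 1425964_x_at from -0.58 to 0.04, with SE of 0.39 and 0.45 and no call. The pooled SD within groups was 0.68 and 0.80 on the log2 scale, larger than for 88% and 93% of all tested probe sets, whose median SD was 0.29.

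Between the doses of SP70, few of the 27 probe sets differed. From 10 to 20 mg/kg 0 were higher and 1 lower, the dim Hspa8 probe set, where 4.38% of all probe sets were higher and 7.73% lower. From 20 to 40 mg/kg 1 was higher and 2 lower, beside 2.36% and 9.65%: the same Hspa8 probe set rose, while Hsp90aa1 1437497_a_at fell by 0.67 ± 0.23 (adjusted p = 0.0482) and Hspa4l 1458385_at by 0.67 ± 0.21 (adjusted p = 0.0309). Mouse 1 of the 40 mg/kg group lay within the range of the 20 mg/kg group or above it for both. From 10 to 40 mg/kg 0 were higher and 2 lower, beside 4.03% and 18.7%, and both were Dnaja1 probe sets that fell, by 0.41 ± 0.10 and 0.38 ± 0.10. The median of all probe sets in that comparison was -0.12, and with quantile normalization the Dnaja1 differences were -0.22 (adjusted p = 0.111) and -0.19 (adjusted p = 0.19), so these calls depend on the scaling. Hspa1a was at 0.97 (adjusted p = 0.0888) and Hspa1b 1452318_a_at at 0.27 (95% interval -0.47 to 1.00) from 10 to 40 mg/kg.

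At the equal dose of 10 mg/kg, the particle sizes differed mainly between SP300 and the smaller ones. SP30 gave 16 of 27 probe sets higher and 3 lower than SP300, where 14.8% of all probe sets were higher and 27.9% lower. SP70 gave 10 higher and 0 lower than SP300, beside 9.45% and 6.93%. The median over the 27 probe sets was 0.64 and 0.47 in these comparisons, and that over all probe sets was -0.12 and -0.01. Bag3 was 3.66-fold higher with SP30 than with SP300 (1.87 ± 0.19, adjusted p = 2.65e-10) and 2.87-fold higher with SP70 (1.52 ± 0.19, adjusted p = 1.23e-07). Hspa1a was at least 4.31-fold and at least 1.98-fold higher (adjusted p = 2.35e-05 and 0.0452). Hspa1b 1452318_a_at was 2.47-fold and 2.18-fold higher (adjusted p = 0.00347 and 0.0286).

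All 5 Hspa4l probe sets were higher with SP30 than with SP300 at this dose, by 0.67 to 1.29, and 3 of them with SP70 than with SP300. The 3 probe sets that were lower with SP30 were those of Dnaja1, by 0.34 to 0.54, of which 1460179_at lost its call with quantile normalization (adjusted p = 0.194). Here the bright Hspa8 probe sets 1455789_x_at and 1420622_a_at were also higher with SP30, by 0.39 ± 0.13 and 0.59 ± 0.20, and the dim 1431182_at by 1.55 ± 0.22. The remaining ones higher with SP30 were Hsp90aa1 1426645_at, by 0.68, and 1438902_a_at, by 0.43, and Dnajb1 1416756_at, by 0.52. None of these Hspa8, Hsp90aa1 and Dnajb1 probe sets was called higher than control after SP30. Hsp90aa1 1426645_at had a mean log2 signal of 13.207 in control mice, 13.190 with SP30 and 12.507 with SP300. For Hspa8 1420622_a_at these means were 14.183, 14.260 and 13.674. With SP70, 1431182_at and Hsp90aa1 1426645_at were higher than with SP300 by 1.09 and 0.79. Between SP30 and SP70 at 10 mg/kg, 1 probe set was higher and 2 lower with SP30, beside 4.17% and 17.9% of all. Hspa4l 1439093_at was higher with SP30, by 0.57 ± 0.13 (adjusted p = 0.00124), and 2 of Dnaja1 were lower, by 0.30 and 0.35, calls lost with quantile normalization (adjusted p = 0.217 and 0.118). Hspa1a gave 1.10 ± 0.41 (adjusted p = 0.0515) between these groups and Bag3 0.35 (95% interval -0.02 to 0.73).

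At the toxic doses, SP30 exceeded SP300 at 200 mg/kg in 11 of 27 probe sets and lay below it in 1, where 10.4% of all probe sets were higher and 11.8% lower. Bag3 was 1.61-fold higher (0.68 ± 0.19, adjusted p = 0.0066) with all 5 mice above all 5, Hsp90aa1 1426645_at 1.84-fold (0.88 ± 0.23, adjusted p = 0.00464), and Hspa1a 2.71-fold (1.44 ± 0.41, adjusted p = 0.0102). The dim Hspa8 probe set was higher by 1.22 ± 0.22 (adjusted p = 9.71e-05), again with all 5 mice above all 5. Such separation was found for 7.26% of all probe sets in this comparison. Also higher were 4 Hspa4l probe sets, both of Dnajb1 and a second one of Hsp90aa1, while Dnaja1 1459835_s_at was lower by 0.38 ± 0.14. SP70 at 40 mg/kg exceeded SP300 at 200 mg/kg in 2 probe sets, Hspa1a by 1.31 ± 0.41 and the dim Hspa8 probe set by 0.85 ± 0.22, and lay below it in 0, beside 4.65% and 6.48% of all. SP30 and SP70 at 40 mg/kg differed only in the 2 Hspa4l probe sets above among the 27, both higher with SP30, beside 2.24% higher and 1.25% lower of all. Between the doses of SP300, 6 were higher at 200 mg/kg than at 10 mg/kg and 1 lower, where 7.17% of all were higher and 17.5% lower. They were Bag3 (2.28-fold), the 3 Hspa1b probe sets (1.97-fold to 2.06-fold) and 2 of Hspa4l, with Dnaja1 1416288_at lower by 0.34 ± 0.10, a call lost with quantile normalization (adjusted p = 0.137).

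Inside the groups, several heat shock genes were high or low in the same mice. Each gene was followed by its brightest tested probe set, as the deviation of a mouse from its group mean. Control mouse 5 was the highest of its group for all 10 genes, with a median deviation of 0.79, although it was the highest for 22.7% of all tested probe sets. Mouse 2 of the 10 mg/kg SP70 group was also the highest for 10 of 10 genes (median 0.56), beside 26.4% of all probe sets, and mouse 1 of the 10 mg/kg SP300 group for 7 of 10 (median 0.38), beside 19%. Mouse 4 of the 10 mg/kg SP70 group was the lowest for 8 of 10 (median -0.42). The share of all probe sets for which it was the lowest was not counted. The largest deviations were 1.79 for Hspa1b and 1.73 for Hspa1a in control mouse 5, followed by 1.63 for Hsph1 in mouse 1 given 10 mg/kg of SP300. The arrays of these 4 mice correlated with their groups at medians of 0.960 to 0.965 across all probe sets, within the range of 0.954 to 0.968 over the 35 arrays. Weights that limma gave to arrays by their fit were 0.852, 0.911, 0.824 and 0.607 for the 4 mice in the order named. The last was the lowest of the 35 arrays. Over all tested probe sets that array, of mouse 4, had a median deviation of -0.066, also the lowest.

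**Figure D4:**
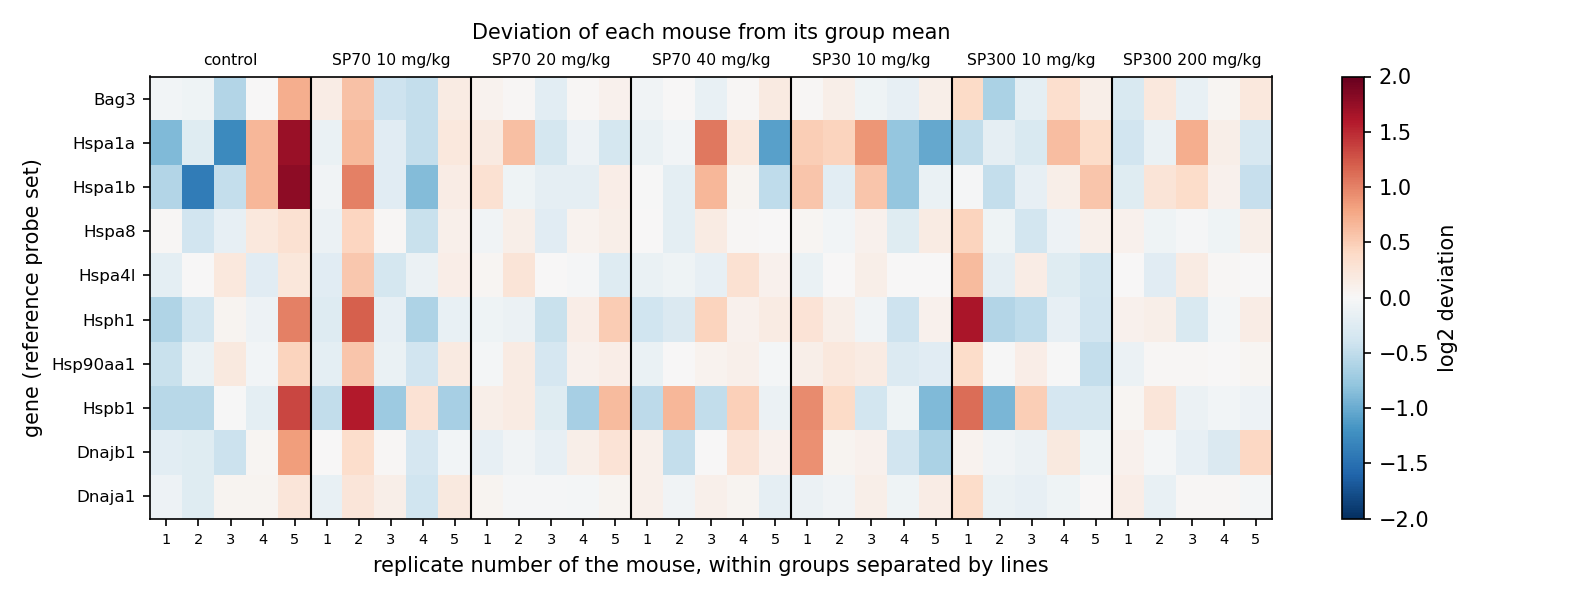
Log2 deviation of each mouse from the mean of its group (columns, replicate numbers within groups separated by lines) for the brightest tested probe set of each gene (rows), red above and blue below the mean. Columns that are red from top to bottom are control mouse 5 and mouse 2 of the 10 mg/kg SP70 group.

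Over the 35 mice, the deviations of all 45 pairs of genes correlated positively, the lowest at 0.07. With 100000 permutations within groups and Benjamini-Hochberg adjustment over the 45 pairs, 29 passed by Pearson's r, and 16 passed by both Pearson's r and Spearman's rho. Hspa8 and Dnaja1 correlated most (r = 0.81, rho = 0.71, permutation p = 1e-05, the smallest they can give, adjusted 0.00045, and 9e-05, adjusted 0.001). Without the 2 mice farthest from the median of Hspa8, r was 0.73. Mice were left out by the first gene named in a pair only. Hspa8 and Hsph1 gave r = 0.77 and rho = 0.65 (permutation p = 7e-05 and 0.00019, adjusted 0.001 and 0.0017), and r = 0.70 without those 2 mice. Hsph1 and Hsp90aa1 gave r = 0.74 and rho = 0.66 (permutation p = 9e-05 and 5e-05, adjusted 0.001 and 0.0009), and r = 0.67 without the 2 mice farthest for Hsph1. Hspa1a and Hspa1b gave r = 0.77 and rho = 0.79 (permutation p = 4e-05 and 3e-05, adjusted 0.0009 and 0.0009), which may include RNA of one gene on the probe set of the other. The arrays have their own errors, which the genes of an array share, and their part in these correlations was not tested. The permutations test a pair against no correlation only. How many other gene pairs would pass was not counted, so the 29 and 16 pairs have no background. Genes outside the list also reached such r of deviations: Slc5a3 with Hspa8 (0.77), Lad1 with Hspa1b (0.76) and Zfp110 with Bag3 (0.79). Each was the highest for its heat shock gene among 12668 genes.

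Some other chaperone lists moved with these mice, and others did so little or not at all. Of 17 chaperones of the endoplasmic reticulum, control mouse 5 was the highest of its group for 16, mouse 2 given 10 mg/kg of SP70 for 14, and mouse 1 given 10 mg/kg of SP300 for 11. Other mice led that list without leading the heat shock genes: mouse 5 of the 40 mg/kg SP70 group was the highest for 15 of 17, but for 1 of the 10 heat shock genes. Of 40 other cytosolic chaperones and co-chaperones, the 3 mice were the highest for 14, 15 and 15. Of 15 TRiC and prefoldin subunits they were the highest for 5, 10 and 4, and of 13 mitochondrial chaperones for 6, 4 and 1. These are 33.3%, 66.7% and 26.7% of the first list and 46.2%, 30.8% and 7.69% of the mitochondrial one. The same mice were the highest for 22.7%, 26.4% and 19% of all tested probe sets. The mitochondrial count in mouse 1 given 10 mg/kg of SP300 thus lay below that share. Stip1, which links HSP70 to HSP90, deviated by 0.36, 0.45 and 0.61 in the 3 mice, and Chordc1, a cochaperone of HSP90, by 0.30, 0.59 and 0.55. Cirbp, an RNA-binding protein induced by mild cold, deviated by -0.49, -0.61 and -0.41 and was the lowest of its group in these 3 mice. Other mice were low too. Cirbp was at -0.85 in mouse 1 of the SP30 group, which was the highest for 3 of the 10 heat shock genes. It was at -0.53 in mouse 5 of the 20 mg/kg SP70 group, the highest for 5 of 10. Zfand2a, of the further stress genes, deviated by 0.41, 0.34 and 0.01 in the 3 mice named first, so it did not follow mouse 1 given 10 mg/kg of SP300. Stip1, Chordc1, Cirbp and Zfand2a were picked here after their values were seen.

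The other chaperone lists were counted against control by the reference probe set of each gene. Among the 17 chaperones of the endoplasmic reticulum, 10, 14 and 13 rose after 10, 20 and 40 mg/kg of SP70, 11 after SP30, 13 after 200 mg/kg of SP300 and 1 after 10 mg/kg of SP300, and 0 fell in any of these groups. Of all probe sets, 10.8%, 19.4%, 13.6%, 16%, 9.84% and 0.834% were higher, in the same order. Creld2, an endoplasmic reticulum stress protein, rose by 2.15 and 2.07 after 40 mg/kg of SP70 and SP30, Dnajb9 by 1.74 and 1.70, and Sdf2l1 by 1.71 and 1.67. The median of the list after 40 mg/kg of SP70 and after SP30 was 0.48 and 0.49, beside -0.06 and -0.08 over all probe sets. The 15 subunits of the chaperonin TRiC and of prefoldin, which fold actin and tubulin, had 7 lower and 0 higher after 40 mg/kg of SP70 and 4 lower and 0 higher after SP30, where 22.1% and 24.3% of all probe sets were lower, with Pfdn5 at -0.52 and Pfdn1 at -0.63 the lowest. The 13 mitochondrial chaperones had 4 lower and 0 higher in both groups, with the protease Htra2 lowest at -0.64 and -0.58. Set against those shares of all probe sets, the counts after SP30 and the mitochondrial counts lie near the background. The medians after 40 mg/kg of SP70 and SP30 were -0.21 and -0.02 for TRiC and prefoldin and -0.11 and -0.05 for the mitochondrial list.

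The 40 other cytosolic chaperones and co-chaperones split after 40 mg/kg of SP70 into 8 higher and 10 lower, and after SP30 into 8 higher and 7 lower. Of all probe sets, 13.6% and 16% were higher and 22.1% and 24.3% lower in these comparisons, so the list lies near the background too, with medians of -0.04 and -0.05. Hspa2, a further HSP70, rose by 1.24 and 1.25, and Fkbp5, a co-chaperone of steroid receptors induced by glucocorticoids, by 1.05 and 1.00. Dnajb5 rose by 0.86 after SP70 and Hspb8, the small heat shock protein that pairs with Bag3, by 0.84 after SP30. Fkbp4, which competes with Fkbp5 on HSP90, fell by 1.39 and 1.21. After 10 mg/kg of SP300, 2 of the 40 were called: Fkbp5 rose by 1.21 and Stip1 fell by 0.67. Among 10 tested heat shock factors and regulators, 1 rose and 6 fell after 40 mg/kg of SP70, and 2 rose and 6 fell after SP30. The medians of this list were -0.29 and -0.25, beside -0.06 and -0.08 over all probe sets. The shares of all probe sets given above apply to this list and the next. Ier5, a feedback regulator of heat shock factors, rose by 1.89 and 1.82, Sirt1 rose by 0.30 after SP30, and Hsf2 fell by 0.85 and 1.20. Of 7 further stress genes, 3 rose and 2 fell after 40 mg/kg of SP70, where the list median was 0.26. After SP30, 5 of these genes rose and 2 fell, with a median of 0.72. They include Hmox1, which breaks down haem, at 3.49 and 3.74, Sqstm1, the autophagy receptor, at 1.08 and 1.16, P4ha1 at 0.90 and 0.95, and Cirbp, which fell by 0.92 and 1.31.

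**Figure D5:**
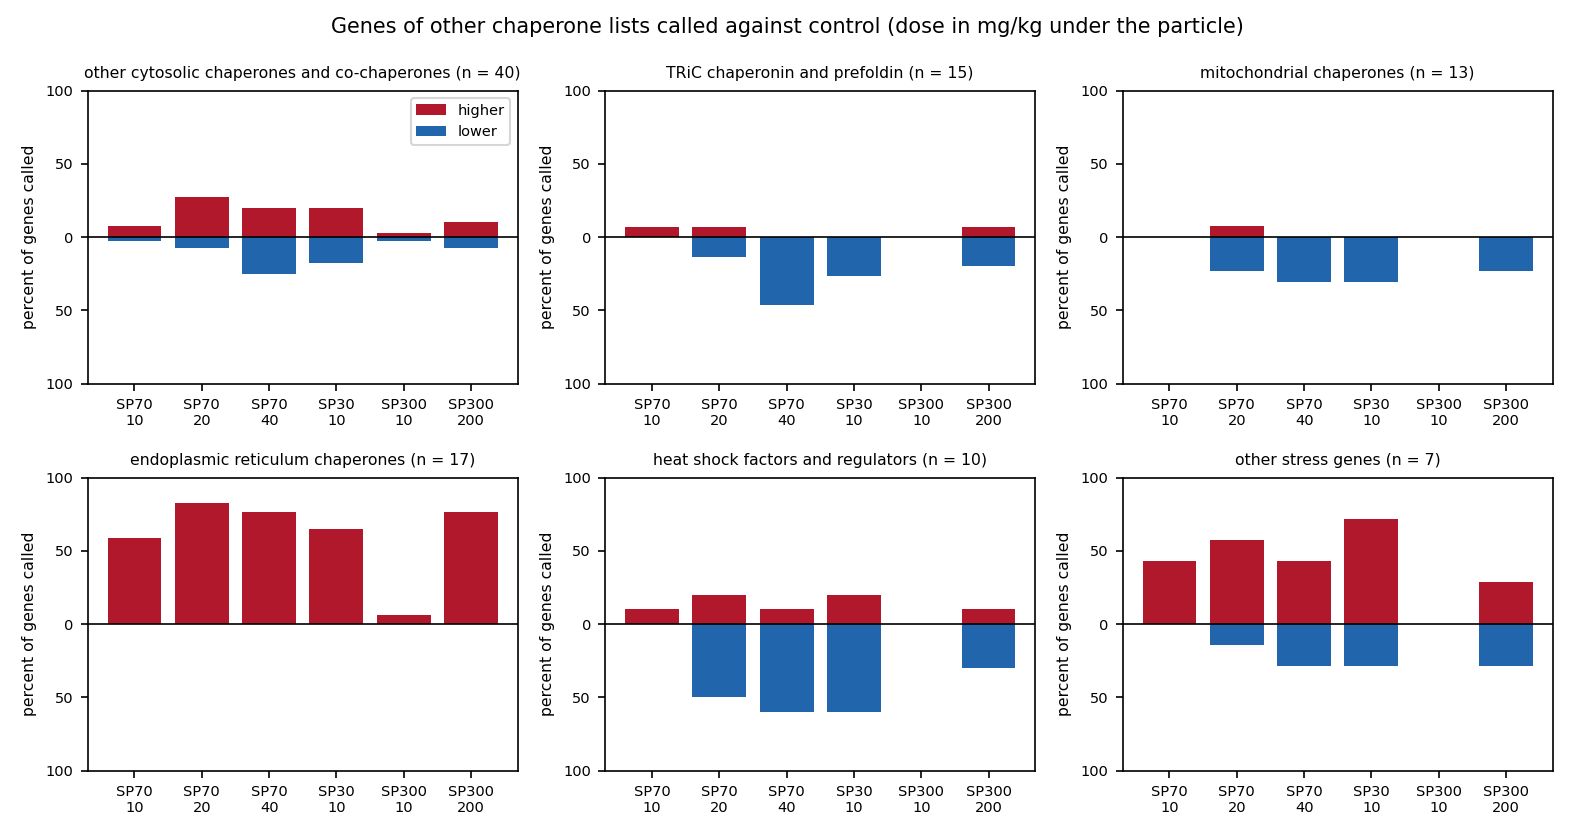
Percent of the genes of 6 lists that were called higher (red, up) or lower (blue, down) than control after each particle and dose in mg/kg. The panel of the endoplasmic reticulum has bars upward only, with 14 of 17 genes higher after 20 mg/kg of SP70, beside 19.4% of all probe sets. The panels of TRiC and of mitochondria point mostly downward.

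Genes outside the 10 whose log2 signals over the 35 arrays were most like those of Hspa1b (1452318_a_at) were, by Pearson's r, Zfand2a (0.73), Phf8 (0.73), Nr4a3 (0.71), Cdc73 (0.71) and Rbm12 (0.70), among 12668 genes. Those most like Hspa8 (1455789_x_at) were Fam118b (0.75), Agap1 (0.68), Noc4l (0.67), Orc4 (0.67) and Zfand2a (0.67). Zfand2a, a zinc finger protein induced by arsenite, is in both lists. For Bag3, looked up after its values were seen, they were Btaf1 (0.94), Ppp4r2, Tmem39a, Rlim and Ccl2 (0.91), and for Hsph1 Stip1 (0.76) and Chordc1 (0.67) were among the first. The arrays hold 7 groups that differ in many probe sets, which these correlations share.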

How the data were processed

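Each of 35 mice gave 1 array of biotin-labelled liver RNA. Values are the intensity per probe set on a linear scale that the authors deposited. MAS5 is named, without a version, in the submitters' processing notes, and no source used here states the scaling between arrays. Genes came from the platform's annotation. Signals were raised by a pseudocount of 12.5, which is percentile 10 of the table, and taken to log2 with no further scaling. Probe sets above 165 on 5 or more arrays entered limma 3.58.1 (R 4.3.3), which estimated 1 mean for each of the 7 groups, tested 16 contrasts and used a variance trend, and p-values were adjusted over 26864 probe sets per comparison. The script was tested on simulated data. Deviations of mice were permuted within groups in Python 3.11.15 with numpy 2.4.6.

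The counts cover all 27 tested heat shock probe sets, and each is named. From each gene list, the 3 highest and the lowest called genes of the comparisons described are named, and other names are marked. The members and lists were chosen with earlier results of these data known. The lists are heat shock factors and regulators, other cytosolic chaperones, TRiC and prefoldin, mitochondrial and endoplasmic reticulum chaperones, other stress genes, and markers of liver and blood cells. Replicate numbers were checked as a pairing: deviations of arrays with the same number correlated at a mean of -0.00118 (105 pairs, from -0.0935 to 0.0976), so they do not pair mice. Alternatives were other pseudocounts, filters, scalings and fits, 1 probe set per gene, the replicate block, and leaving out each mouse. No depth exists for arrays, and the number of arrays limits the precision.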

Additional observations from a re-analysis of the deposited data

Results flagged for a closer look

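Among 189 sets of 5 mice (27 probe sets in 7 groups), 10 had 1 mouse far from the other 4, with a gap to the nearest mouse above Dixon's critical value for 5 values. Chance gives about 1 in 20 such sets. Mouse 2 of the 10 mg/kg SP70 group stood out high for Hsph1 1425993_a_at, at 6714, and for Hspa4l 1449010_at, at 1649. Mouse 1 of the 10 mg/kg SP300 group stood out high for Hsph1 1425993_a_at, at 6296. Mouse 4 of the SP30 group stood out low for Hsp90aa1 1426645_at, at 6925, and for Hsph1 1423566_a_at, at 1076. Control mouse 5 stood out low for Hspa4l 1429106_at, at 397, where it was high for the brightest probe set of that gene. Mouse 3 of the 20 mg/kg SP70 group stood out low for Bag3 1422452_at, at 3677, and high for Hspa4l 1439093_at, at 668. Mouse 1 of the 40 mg/kg SP70 group stood out high for Hsp90aa1 1437497_a_at, at 15622, and mouse 1 of the 200 mg/kg SP300 group low for Hsp90aa1 1438902_a_at, at 22875.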

How the results depend on the processing

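Of 43 calls of heat shock probe sets against control, 26 held under every alternative, and of 119 values not called, 22 were called under at least 1. No call changed direction. Of 61 calls between treated groups, 33 held. Counts against control, in the order SP70 at 10, 20 and 40 mg/kg, SP30, and SP300 at 10 and 200 mg/kg, were 2, 8, 12, 11, 2 and 8, and with 1 probe set per gene 1, 3, 5, 4, 0 and 5 of 10 genes, since fewer probe sets are tested. After 200 mg/kg of SP300 the count was 5 with no filter, quantile normalization, centring on the median, scaling to 1 trimmed mean or no variance trend, and after 10 mg/kg of SP300 it was 1 with no filter or with only the groups compared. The count of other chaperone genes called after 10 mg/kg of SP300 was 1 with only the groups compared, where it is 3 in the reported fit.

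Between treated groups, SP70 at 20 against 10 mg/kg gave 3 with a filter on all 35 arrays or array weights and 0 with 1 probe set per gene. SP70 at 40 against 20 mg/kg gave 5 with either of the first 2, 7 with only the groups compared and 0 with 1 probe set per gene. SP70 at 40 against 10 mg/kg gave 0 with quantile normalization and 1 with centring or with 1 probe set per gene (lower in both) and with the trimmed mean (higher). SP30 against SP70 at 10 mg/kg gave 5 with a pseudocount of 50, the filter on 35 arrays, centring or the trimmed mean, and 6 with quantile normalization or array weights. After quantile normalization, centring or the trimmed mean all of these were higher with SP30, where the reported fit has 1 higher and 2 lower. SP70 at 40 against SP300 at 200 mg/kg gave 1 with no filter, no variance trend or 1 probe set per gene, 4 with centring, the trimmed mean or array weights, and 5 with only the groups compared. With 1 probe set per gene, SP30 against SP300 at 10 mg/kg gave 7, SP70 against SP300 at 10 mg/kg 3, SP30 against SP70 at 40 mg/kg 1, SP30 against SP300 at 200 mg/kg 5, and the doses of SP300 3. The causes were not tested. Without a filter, 0.52% to 24.6% of all probe sets were called over the 16 comparisons.

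Leaving out 1 mouse at a time gave 2 to 6, 7 to 11 and 7 to 12 calls for SP70 at 10 mg/kg, SP70 at 40 mg/kg and SP30 against control, and 1 to 6 and 5 to 10 for SP300 at 10 and 200 mg/kg. For other chaperone genes it gave 12 to 24 for SP70 at 10 mg/kg (19 reported) and 1 to 4 for SP300 at 10 mg/kg. Between treated groups it gave 0 to 2 for SP70 at 20 against 10 mg/kg, 1 to 4 for 40 against 20 mg/kg, 2 to 6 for SP30 against SP70 at 10 mg/kg, 1 to 3 for SP30 against SP70 at 40 mg/kg, 1 to 3 for SP70 at 40 against SP300 at 200 mg/kg, and 4 to 7 for the doses of SP300. The 6 calls of SP70 at 10 mg/kg came without control mouse 5. The 6 calls of SP300 at 10 mg/kg came without mouse 1 of that group.

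The replicate block lost 7 calls of single probe sets and gained 1 over the 16 comparisons. Against control it lost Hspa4l 1418253_a_at (-0.39, adjusted p = 0.0617) and 1439093_at (0.33, adjusted p = 0.0515) after 40 mg/kg of SP70. Nothing in the labels says that the numbers pair mice.

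The table gives no detection calls, so signals near or below 165, such as those of Hspa1a in control mice, have no known background. Probe sets of 1 gene disagreed for Hspa8 and Hspa4l, and the transcripts they detect were not checked.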
